A study of Homo sapiens with 8 samples.

Results

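The distal short arm of chromosome 1, band 1p36, was examined in A2780 cells, a human ovarian carcinoma line, for γH2AX, the phosphorylated histone H2A variant that forms around DNA breaks. The regions were those called on chromosome 1 with a midpoint from 1 Mb to below 20 Mb (hg19), 19 Mb in all. They numbered 260 in the Pt-ttpy list, 325 in the cisplatin list and 183 in the untreated list, or 768 of the 53169 regions of the 3 lists on chromosomes 1 to 22 and X. The stretch was chosen from the positions in these lists, so the counts below are descriptions and carry no test.

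The series had 8 samples in 4 groups of 2. These were A2780 cells given Pt-ttpy, a platinum compound with affinity for G-quadruplex DNA, cells given cisplatin, which crosslinks DNA, untreated cells, and input, that is chromatin from untreated cells without antibody. Each drug was given at its IC80 for 96 hours, where both complexes damage genomic DNA to a like extent per the labels' protocols, and the 3 antibody groups used the same antibody against γH2AX. Both replicates of a group are tied by the labels to 1 peak list, so each list stood for 1 sample without replicates, no p-value between conditions was possible, and the spread between cultures is unknown. The sources used here do not state what each list was called against. The names of both drug lists also carry the abbreviation for untreated, so by the labels untreated chromatin as their control cannot be told apart from input. Each fold went with a single p-value within a list, as given below, which is what 1 background for a whole list gives. The folds are therefore read as ratios over a list-wide background, not over a control signal at each place. How a control entered the calls is not stated, and the overlap with the untreated list may depend on it. Input values were not analysed here.

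γH2AX is laid down by kinases that respond to DNA breaks, and it can spread far from the break along the chromatin. Sequencing of immunoprecipitated DNA reads it as enriched regions, and reads of sequence that occurs in several copies can be placed at any of them. Band 1p36 is known for duplicated genes. In the RefSeq annotation of GRCh38, 39 gene entries run from CROCCP3 to CROCC. CROCC encodes rootletin, a protein of the ciliary rootlet, and 3 of the 4 CROCC entries in the run are pseudogenes. The run also holds NBPF1, a neuroblastoma breakpoint family gene made of repeated domains, MST1P2 and MST1L, which are relatives of the macrophage stimulating factor gene MST1, and ESPNP, a pseudogene of the actin-bundling protein espin. It has 6 entries of U1 small nuclear RNA, which recognises splice sites, and 11 transfer RNA entries. A separate run from PRAMEF12 to PRAMEF20 holds 30 PRAMEF entries, relatives of the tumour antigen PRAME, and 4 HNRNPCL entries. The peak lists are on hg19 and name no genes, so no region was assigned to a gene, and whether the clusters below are duplicated genes could not be checked against the data.

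Nearly all regions lay in 3 small places. A window of 100 kb was called dense where a list placed at least 5 midpoints in it. Dense windows numbered 8 of 190 in the Pt-ttpy list, 8 in the cisplatin list and 7 in the untreated list. Those that were dense in any list joined into 3 clusters: a telomere-side cluster at 2.5 to 2.7 Mb, a small one at 5.7 to 5.8 Mb and a large one at 16.8 to 17.3 Mb. The clusters held 95.4% of the Pt-ttpy regions (248 of 260), 93.5% of the cisplatin regions (304 of 325) and 98.9% of the untreated regions (181 of 183). Over the genome, 658 of the 2307 windows with any Pt-ttpy region were dense, 1075 of 4013 for cisplatin and 299 of 930 for untreated. In the stretch these were 8 of 19, 8 of 20 and 7 of 10. The share of each whole list in dense windows was not computed, so such packing is not shown to be particular to the stretch. No region fell in 171 of the 190 windows in the Pt-ttpy list, in 170 in the cisplatin list and in 180 in the untreated list.

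**Figure D1:**
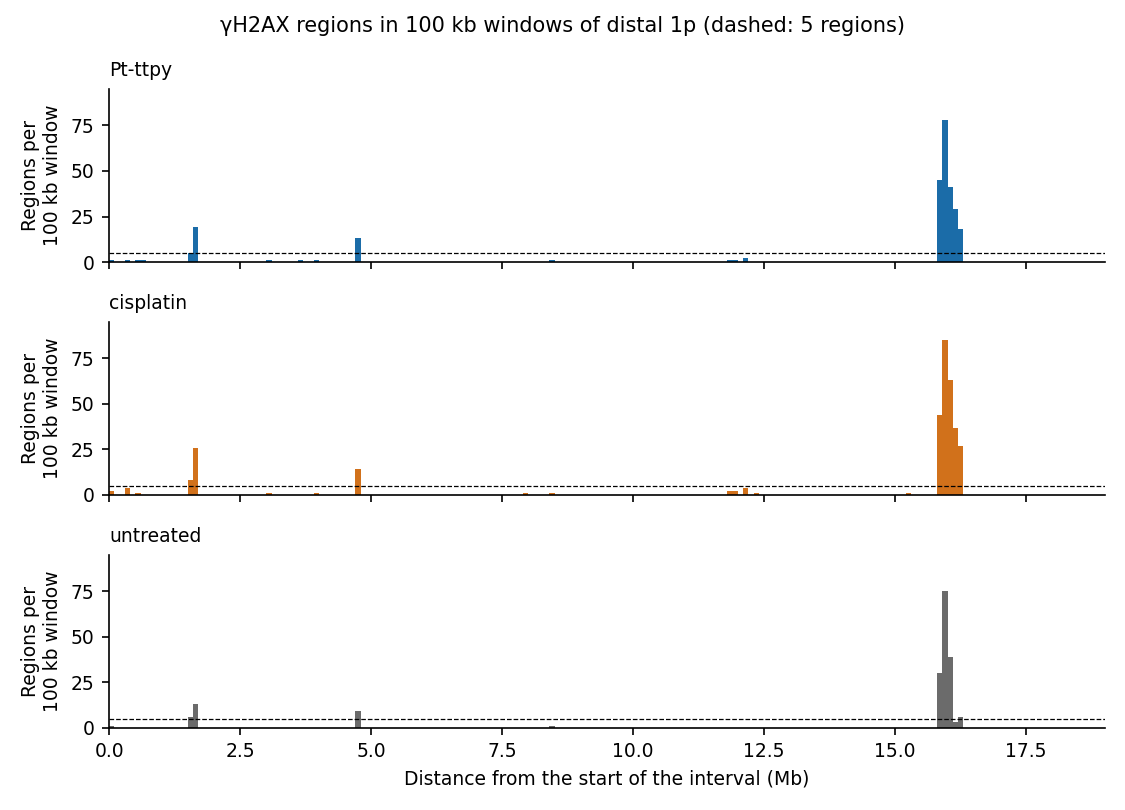
Number of γH2AX regions in each 100 kb window (vertical axis) against distance from the start of the interval in Mb (horizontal axis), with 1 panel per list and a dashed line at 5 regions. The tallest window held 78 Pt-ttpy, 85 cisplatin and 75 untreated regions, and between the 3 clusters no window reached the dashed line in any list.

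The densest window of the stretch was the same in all 3 lists. It lay at 16.9 to 17.0 Mb and held 78 Pt-ttpy, 85 cisplatin and 75 untreated regions. Counted within each list, 35 windows of the genome held more Pt-ttpy regions, 29 held more cisplatin regions and 22 held more untreated regions. The window before it, at 16.8 to 16.9 Mb, held 45 Pt-ttpy, 44 cisplatin and 30 untreated regions. The window after it, at 17.0 to 17.1 Mb, held 41, 63 and 39 in the Pt-ttpy, cisplatin and untreated lists. The lists parted most at 17.1 to 17.2 Mb, with 29 Pt-ttpy and 37 cisplatin regions against 3 untreated regions. The last window of the large cluster, at 17.2 to 17.3 Mb, held 18 Pt-ttpy, 27 cisplatin and 6 untreated regions. Of the other leading windows, that at 2.6 to 2.7 Mb held 19 Pt-ttpy, 26 cisplatin and 13 untreated regions, and that at 5.7 to 5.8 Mb held 13, 14 and 9.

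No region crossed either edge of the stretch, though the first ones lay in its first 100 kb window. The last regions below 1 Mb ended at 827020 (Pt-ttpy), 828035 (cisplatin) and 825975 (untreated), and the first ones inside began at 1034739, 1034433 and 1034906. At the other end the last regions inside ended at 17235230 (Pt-ttpy), 17271075 (cisplatin) and 17233333 (untreated), and the next began at 21746452, 21746085 and 21790134. Just under the limit of 5 regions were the windows at 1.3 to 1.4 Mb and 13.1 to 13.2 Mb, each with 4 cisplatin regions and with 1 and 2 Pt-ttpy regions. The Pt-ttpy list stood at exactly 5 at 2.5 to 2.6 Mb.

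**Figure D2:**
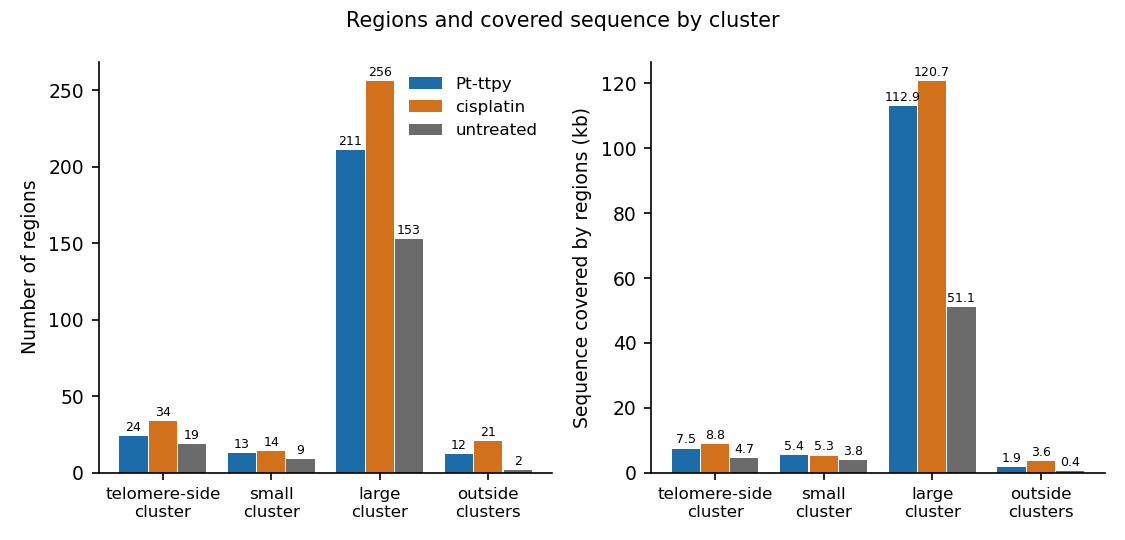
Number of regions (left, vertical axis) and sequence covered by them in kb (right, vertical axis) in the 3 clusters and outside them (horizontal axis), with 1 bar per list. In the large cluster the regions covered 112.9 kb in the Pt-ttpy, 120.7 kb in the cisplatin and 51.1 kb in the untreated list.

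As deposited, the drug lists were longer than the untreated list here, but by less than over the rest of the genome. The stretch held 1.42 Pt-ttpy regions and 1.78 cisplatin regions per untreated region, where the rest of the lists gave 1.84 and 2.66. Below 1 Mb on chromosome 1 there were 99 Pt-ttpy and 103 cisplatin regions against 60 untreated regions, or 1.65 and 1.72 per untreated region. From 20 to 120 Mb there were 80 Pt-ttpy and 140 cisplatin regions against 14 untreated regions, or 5.71 and 10 per untreated region. The span from 20 to 120 Mb had 4 Pt-ttpy, 4 cisplatin and 1 untreated dense windows among 1000. Between the drugs there were 0.8 Pt-ttpy regions per cisplatin region in the stretch from 1 to 20 Mb and 0.692 elsewhere. These ratios rest on list length. With the 9709 top regions of each list the ratio over whole lists is 1 by construction. The stretch then gave 0.913 for Pt-ttpy over untreated, which turns the direction, and 1.07 for cisplatin over untreated. The cisplatin ratio was thus no longer below that of the whole lists. With the missing untreated peak numbers of the stretch, described below, counted in, the ratios were 0.945, again turned, and 1.18. Over all chromosomes 8848 untreated numbers are missing, and whole-list ratios with them counted were not computed.

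As a share of its own list, the stretch held 1.46% of Pt-ttpy regions (95% exact binomial interval 1.29 to 1.65), 1.27% of cisplatin regions (1.13 to 1.41) and 1.88% of untreated regions (1.62 to 2.18). With equal lists of top regions the shares were 1.72% for Pt-ttpy, 2.02% for cisplatin and 1.88% for untreated, so their order depends on list length. The intervals treat regions as independent and cover counting error only. The depth is unknown, since the lists carry no read totals. Like folds also went with unlike q-values between lists, as given below.

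The large cluster held most of the regions in every list: 211 of 260 Pt-ttpy regions, 256 of 325 cisplatin regions and 153 of 183 untreated regions. Joining regions of any list that lay within 5 kb of each other, a distance chosen after the data were seen, parted it into 9 blocks. The longest ran from 16855965 to 17002768, 146.8 kb, with 115 Pt-ttpy, 117 cisplatin and 99 untreated regions. Called sequence made up 51.4% of that block in the Pt-ttpy list, 52.5% in the cisplatin list and 26.2% in the untreated list. The drug lists thus had similar numbers of regions there and covered about the same length. The untreated list had a similar number of shorter ones, some of them pieces of 1 peak number.

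Within the long block the widest regions of the 3 lists fell in the same place. The widest Pt-ttpy region ran from 16928095 to 16939472 and measured 11378 bp, with only 7 wider Pt-ttpy regions in the genome. The cisplatin list called the same place as 3 regions, the widest from 16928140 to 16935343 with 7204 bp, and together they covered 97.5% of the Pt-ttpy region. In the untreated list 14 pieces covered 63.4% of it, the widest from 16930545 to 16932851 with 2307 bp. The fold over the background of its own list was 6.37 for the Pt-ttpy region, 6.75 for the widest cisplatin region and 6.01 for the widest untreated piece. The fold is the authors' value, and each list is taken to have its own background, so folds rank regions only against others of the same list.

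The strongest Pt-ttpy region of the stretch was also in the long block, from 16889935 to 16893941, with a fold of 11.0. The cisplatin list had 3 regions there, led by 16890181 to 16892924 with a fold of 11.3. The untreated list had 4 pieces, led by 16891892 to 16892888 with a fold of 13.8. Within their own lists 4.11% of Pt-ttpy, 3.29% of cisplatin and 8.17% of untreated regions of the genome had a higher fold. By fold it ranked 732 of 17789 Pt-ttpy, 845 of 25671 cisplatin and 794 of 9709 untreated regions. The place thus ranked high in each list, with and without drug, but well below its strongest regions.

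The other leading regions by fold and width fell in the same places. Of the 5 regions of highest fold, the large cluster held 1 Pt-ttpy, 2 cisplatin and 3 untreated ones, the small cluster 3, 2 and 1, and the telomere-side cluster 1 in each list. The 5 widest regions of each list were all in the large cluster, and measured 2502 to 11378 bp for Pt-ttpy, 2910 to 7204 bp for cisplatin and 1424 to 2307 bp for untreated. Every one of these leading regions overlapped a region of both other lists. They were picked for fold or width, and wide regions meet a 1 bp rule more readily. The share for like regions over the genome was not computed.

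Past the long block came a second large one, and beyond it the untreated calls became few. The block from 17048118 to 17125587 held 51 Pt-ttpy, 74 cisplatin and 40 untreated regions, and 33.5%, 36.9% and 12.4% of it was called in these lists. After it came 50.2 kb without a region in any list. The build has an assembly gap of 50 kb there, by general knowledge of hg19, and the nearest cisplatin regions lay 71 bp before and 123 bp after it. The next block, 17175782 to 17178716, held 2 Pt-ttpy, 6 cisplatin and 0 untreated regions. The block from 17185472 to 17205935 held 19 Pt-ttpy and 20 cisplatin regions against 2 untreated ones, and that from 17214465 to 17236245 held 10 Pt-ttpy and 16 cisplatin regions against 4 untreated ones.

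The missing untreated peak numbers touch this tail directly. Of the 18049 peak numbers of the deposited untreated list, 8848 are absent, for a reason that the sources used here do not give. Between the untreated regions ending at 17120518 and starting at 17200273 there were 12 missing numbers, 17 Pt-ttpy regions and 19 cisplatin regions off the untreated list. Between 17201704 and 17224340 there were 7 missing numbers, 5 such Pt-ttpy regions and 12 such cisplatin regions. Over the whole stretch 92 of 255 numbers were missing between retained neighbours, a lower share than the 8848 of 18049 over the list. Of these, 72 were in the large cluster (of 207 numbers), 5 in the telomere-side cluster (of 22) and 1 in the small cluster (of 10). Of the regions off the untreated list, 115 of 145 Pt-ttpy and 161 of 208 cisplatin regions lay between retained neighbours with a number missing. The same shares over the whole lists were not computed. At 1 drug region per missing number of the stretch that makes 75 Pt-ttpy and 77 cisplatin regions, though 1 untreated peak can overlap several drug regions. Their part in the difference was not tested.

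**Figure D3:**
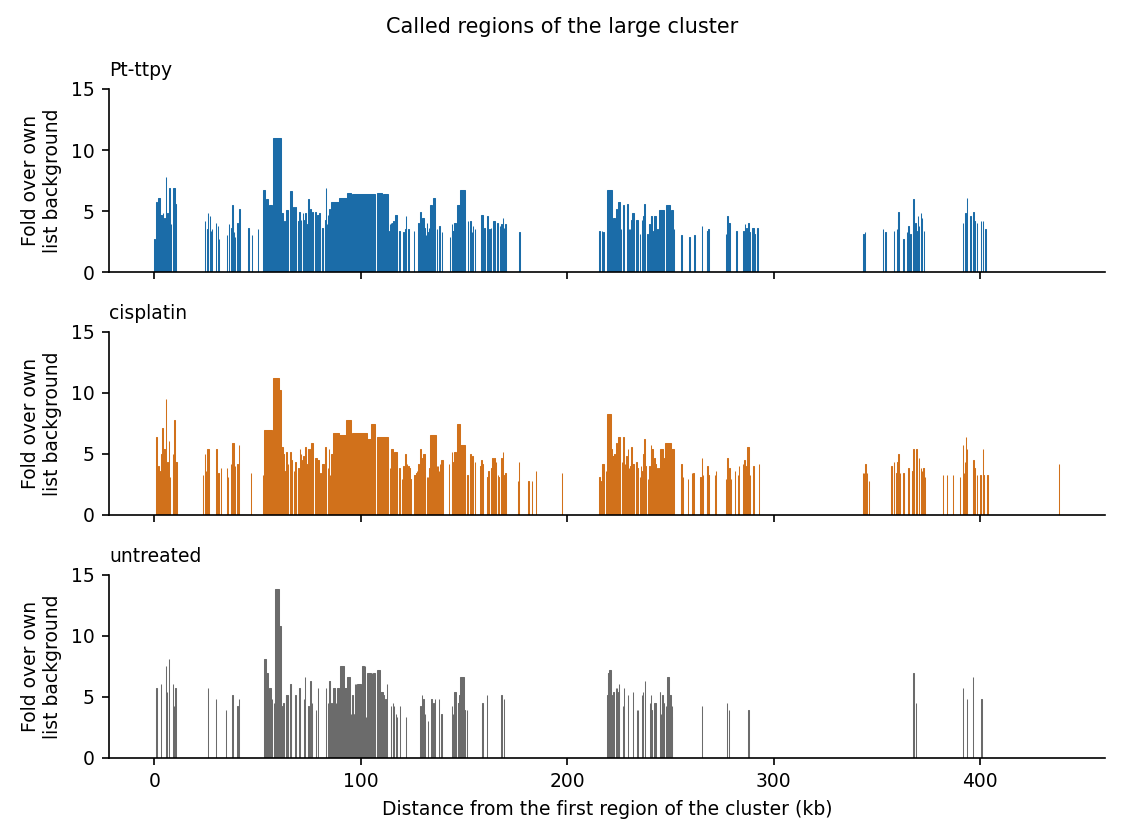
Called regions of the large cluster, drawn at their width plus a thin outline, by distance from its first region in kb (horizontal axis) and by fold over the background of their own list (vertical axis), with 1 panel per list. The run of wide regions and the peak of fold 11.0, 11.3 and 13.8 before it recur in the Pt-ttpy, cisplatin and untreated panels, and the right end holds few untreated regions.

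The telomere-side cluster held 24 Pt-ttpy, 34 cisplatin and 19 untreated regions, which covered 7.46, 8.79 and 4.66 kb. One block ran from 2583624 to 2608582 with 7 Pt-ttpy, 12 cisplatin and 8 untreated regions, and a second from 2615261 to 2631036 with 16, 20 and 11. Called sequence made up 15.5%, 19.8% and 10.2% of the first block in the Pt-ttpy, cisplatin and untreated lists and 22.1%, 22.3% and 13.5% of the second, below the shares in the longest block of the large cluster. Then 58.0 kb had no region in any list, a span that holds another assembly gap of 50 kb by general knowledge of hg19. Behind it lay 1 Pt-ttpy and 2 cisplatin regions, between 2689058 and 2689650, and no untreated one.

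The strongest untreated region of the stretch lay in the telomere-side cluster. The place was called from 2628729 to 2629338 in the Pt-ttpy list, with a fold of 8.82, from 2628759 to 2629360 in the cisplatin list, with a fold of 10.4, and from 2628740 to 2629334 in the untreated list, with a fold of 14.1. The summits, the positions of highest signal, were at 2629243 for Pt-ttpy, 2629246 for cisplatin and 2629239 for untreated. The 3 lists thus placed this peak within a few bases of each other. The widest region of the cluster was called from 2584028 to 2585955 after Pt-ttpy and from 2584024 to 2586611 after cisplatin. In the untreated list the same place was cut into 3 pieces that carry 1 peak number, from 2584257 to 2584957, from 2585099 to 2585256 and from 2585365 to 2586014.

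The small cluster held 13 Pt-ttpy, 14 cisplatin and 9 untreated regions over 21.0, 20.5 and 20.4 kb, and 5.41, 5.30 and 3.84 kb of that was called. All 9 untreated regions overlapped a region of both drug lists. Its median fold was 7.14 in the Pt-ttpy, 7.53 in the cisplatin and 8.72 in the untreated list, against 4.04, 4.15 and 5.11 in the large cluster of the same lists. The widest region ran from 5731519 to 5733140 (Pt-ttpy, fold 9.98), from 5731648 to 5733162 (cisplatin, fold 11.6) and from 5731737 to 5733077 (untreated, fold 9.32). Their summits were at 5732432, 5732430 and 5732440. The cluster fell into a main block and a smaller one 8.82 kb before it. The strongest region of the smaller block was narrow, and ran from 5715704 to 5715860 (Pt-ttpy, fold 7.40), from 5715712 to 5715873 (cisplatin, fold 7.79), and from 5715712 to 5715867 (untreated, fold 11.4).

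Outside the clusters the stretch was nearly empty, with 12 Pt-ttpy, 21 cisplatin and 2 untreated regions. Both untreated regions were called after either drug as well. The first place was called at 1034739 to 1035270 (Pt-ttpy, fold 8.69), 1034730 to 1035279 (cisplatin, fold 9.0) and 1034906 to 1035197 (untreated, fold 8.72). The other was called at 9471190 to 9471298 (Pt-ttpy, fold 4.56), 9471190 to 9471336 (cisplatin, fold 5.54) and 9471191 to 9471299 (untreated, fold 5.41). The strongest place off the untreated list here was called from 4999612 to 4999726 (Pt-ttpy, fold 6.11) and from 4999610 to 4999736 (cisplatin, fold 6.75). From 12.8 to 13.6 Mb, a range singled out after its values were seen, there were 4 Pt-ttpy and 9 cisplatin regions and no untreated region. Their folds ran from 2.75 to 4.04 for Pt-ttpy and from 2.77 to 3.81 for cisplatin, around medians of 3.39 and 3.29, where the whole lists had medians of 3.91 and 3.64.

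Pooling the regions of all 3 lists into loci, stretches of overlapping regions, gave 336 loci. All 3 lists called 98 of them, the drug lists alone 84, cisplatin alone 100, Pt-ttpy alone 46 and untreated alone 2. Pt-ttpy and untreated alone had 3 loci in common, and so did cisplatin and untreated. In percent, 29.2% of the loci were in all lists, against 20.9% of the 30004 loci made in the same way over the genome, and 25% in the drug lists alone, against 16.1%. Loci of cisplatin alone made up 29.8%, against 44% over the genome, and those of Pt-ttpy alone 13.7%, against 17.4%. The small classes were 0.893% for Pt-ttpy with untreated, against 0.413% over the genome, 0.893% for cisplatin with untreated, against 0.66%, and 0.595% for untreated alone, against 0.577%. The share of loci called in 1 drug list alone was thus lower in the stretch than over the genome, which was not tested. The loci called in all lists had a median width of 648 bp, against 431 bp over the genome, and held 108.4 kb. Those of both drugs alone had a median of 263.5 bp, against 251 bp, and held 28.4 kb. Those of Pt-ttpy alone had a median of 149.5 bp, against 137 bp, and held 7.95 kb. Those of cisplatin alone had a median of 141 bp, against 139 bp, and held 16.6 kb. A locus spans every region it joins, so loci of several lists tend to be wider by construction. The same order of widths held over the genome.

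**Figure D4:**
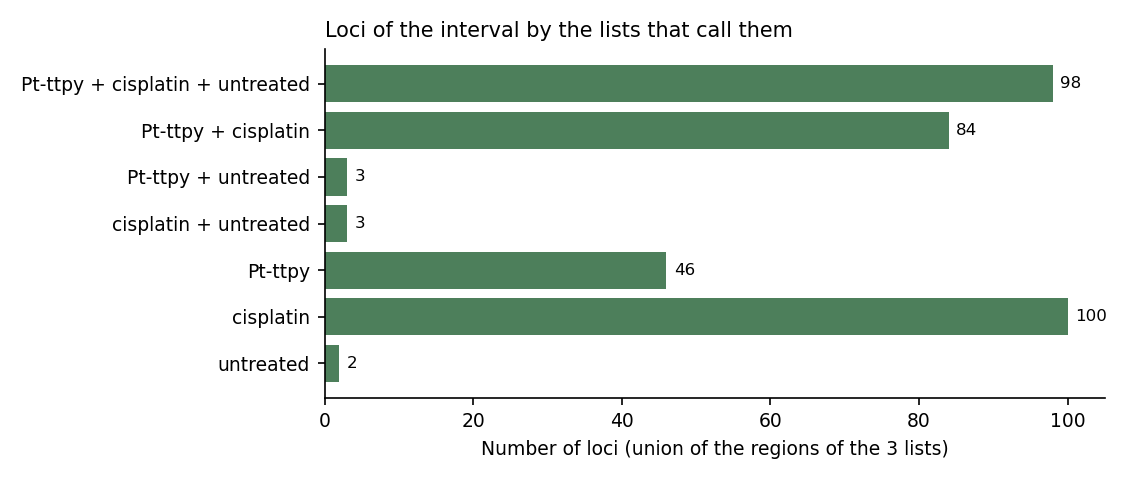
Number of loci (horizontal axis) by the lists that call them (vertical axis), over the 336 loci made from the regions of the 3 lists. Most loci of the stretch were called in all 3 lists (98), in both drug lists alone (84) or in the cisplatin list alone (100).

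The telomere-side cluster had 34 loci, of which 12 were in all lists, 10 in both drug lists alone, 9 in cisplatin alone and 0 in Pt-ttpy alone. The small cluster had 16 loci, 8 in all lists, 2 in both drug lists alone and 3 in each drug list alone. The large cluster had 262 loci, 76 in all lists, 65 in both drug lists alone, 40 in Pt-ttpy alone and 76 in cisplatin alone. Both loci called in the untreated list alone were in the large cluster.

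Counted by region, 80.8% of the Pt-ttpy regions of the stretch shared at least 1 bp with a cisplatin region (210 of 260, 95% exact binomial interval 75.4 to 85.4), where the share over the whole Pt-ttpy list was 69.9%. In the other direction the share of cisplatin regions on the Pt-ttpy list was 68.3% (222 of 325, interval 62.9 to 73.3), against 47.8% over the whole cisplatin list. Overlap with the untreated list was 44.2% for Pt-ttpy regions (115 of 260) and 36.0% for cisplatin regions (117 of 325), against 39.5% and 27.3% over their whole lists. Of the untreated regions, 95.6% lay on a Pt-ttpy region (175 of 183) and 95.1% on a cisplatin region (174 of 183), near the 95.1% and 96.1% of the whole untreated list. The drug regions thus overlapped each other and the untreated list in a higher share here than over their lists, and the untreated regions did so in about the same share. Other settings widened or turned several of these. With regions within 1 kb merged, 79.7% of Pt-ttpy regions lay on cisplatin against 55.7% over the whole list. For cisplatin on Pt-ttpy it was 64.0% against 30.4%. The shares on the untreated list were 47.8% against 29.0% for Pt-ttpy and 40.4% against 16.4% for cisplatin, so the excess was wider under merging. With only regions of a -log10 q of at least 5, the shares on the untreated list turned below those of the whole lists: 47.3% against 52.3% for Pt-ttpy and 35.9% against 44.3% for cisplatin. The drugs' overlap was then 85.6% against 83.1% for Pt-ttpy on cisplatin and 70.0% against 70.3% for cisplatin on Pt-ttpy. With equal lists, the shares on the untreated list were again below those of the whole lists, at 62.9% against 66.1% for Pt-ttpy and 54.1% against 64.5% for cisplatin, and cisplatin on Pt-ttpy was 73.5% against 78.4%.

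By sequence covered, 81.6% of the 127.7 kb called after Pt-ttpy was also called after cisplatin, and 75.2% of the 138.4 kb called after cisplatin was also called after Pt-ttpy. The untreated calls covered 60.0 kb, of which 94.9% was called after Pt-ttpy and 95.3% after cisplatin. The small cluster had the highest shares, 88.9% of Pt-ttpy sequence on cisplatin and 90.7% of cisplatin sequence on Pt-ttpy.

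Where regions of both drug lists matched one to one, 137 pairs, their summits lay a median of 29 bp apart, and 84 of the 137 pairs were within 50 bp. For Pt-ttpy and untreated regions the median was 39 bp over 59 pairs whose summits lay in their own regions, and for cisplatin and untreated regions 29 bp over 67 pairs. Paired regions overlap by selection, which limits how far apart summits can lie. In the drug pairs the median widths were 229 bp for Pt-ttpy and 233 bp for cisplatin. The distance over the genome was not computed. Of the matched pairs, the Pt-ttpy region was wider than the untreated one in 67 of 74 and the cisplatin region in 77 of 86. In the untreated list of the stretch 52 summits lay outside their own region and 27 pieces were under 100 bp. Some untreated widths are thus not those of whole peaks, which limits the comparison of widths with the drug lists. Between the drugs, the Pt-ttpy region was wider in 62 of 137 pairs and the cisplatin region in 73. Over the matched pairs the Spearman correlation of fold across regions was 0.730 between Pt-ttpy and cisplatin, 0.756 between Pt-ttpy and untreated and 0.550 between cisplatin and untreated. Regions are not independent replicates, and matched regions share their sequence and copy number.

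Regions called in 1 drug list alone had lower folds, at the median, than the shared regions of the same list. Pt-ttpy regions on both other lists had a median fold of 4.94 (111 regions), those on no other list 3.46 (46 regions). Cisplatin regions on both other lists had a median fold of 5.37 (114 regions), those on no other list 3.46 (100 regions). The Pt-ttpy regions off both other lists with the highest fold were at 17202467 to 17202640, 16859350 to 16859485 and 17227831 to 17227953, each with a fold of 4.56. The cisplatin ones were at 2627993 to 2628108 with a fold of 5.37, and at 17202078 to 17202227 and 1305281 to 1305381 with 4.50 each.

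**Figure D5:**
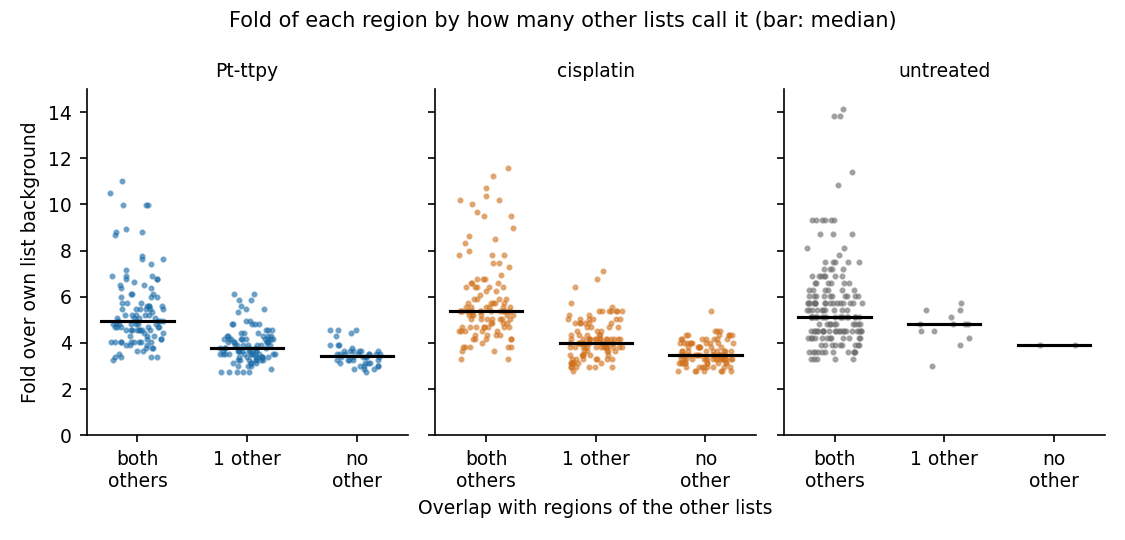
Fold over the background of its own list (vertical axis) of every region of the stretch, by how many of the other lists overlap it (horizontal axis), with 1 panel per list, 1 point per region and bars at medians. In the Pt-ttpy and cisplatin panels the regions on no other list lie low, with medians of 3.46 in each, against 4.94 and 5.37 for regions on both other lists.

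At the median the drug regions of the stretch were wider than those elsewhere in the same list, which was not clear for the untreated regions. The median width was 236.5 bp for Pt-ttpy (95% interval 205 to 266), against 184 bp in the rest of its list. It was 225 bp for cisplatin (207 to 252), against 168 bp, and 181 bp for untreated (160 to 236), against 164 bp. By cluster, for Pt-ttpy, cisplatin and untreated, the medians were 258, 255 and 183 bp in the large cluster. They were 190, 217.5 and 246 bp in the small cluster and 183.5, 143.5 and 144 bp in the telomere-side one. Outside the clusters they were 114, 131 and 200.5 bp, the last over 2 regions. Telomere-side regions were thus not wider than the rest. Regions of 1 kb or more numbered 24 after Pt-ttpy, 23 after cisplatin and 10 in untreated cells, or 9.23%, 7.08% and 5.46%, against 5.88%, 4.37% and 4.65% in the rest of each list. These are widths of listed regions, in the untreated list partly of cut pieces, and do not measure how far γH2AX spreads. In the untreated list 17 peak numbers of the stretch stood on more than 1 piece and 27 pieces were under 100 bp. The narrowest Pt-ttpy and cisplatin regions measured 101 bp.

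By median fold the stretch lay above the rest of the cisplatin list, near the rest of the Pt-ttpy list and below the rest of the untreated list. The median was 4.04 for Pt-ttpy (95% interval 3.91 to 4.30) and 4.15 for cisplatin (3.98 to 4.33), where the rest had 3.91 and 3.64. It was 5.11 for untreated (4.81 to 5.41), where the rest had 5.71. Among the clusters only the large one lay below the untreated rest, with 5.11, against 5.71 in the telomere-side and 8.72 in the small cluster. The share with a -log10 q of at least 5 was 64.2% in the Pt-ttpy list (57.6% over the whole list), 68.6% in the cisplatin list (46.9%) and 64.5% in the untreated list (73.9%). The highest folds of the stretch, 11.0, 11.6 and 14.1 in the Pt-ttpy, cisplatin and untreated lists, were well under the highest of the rest of these lists, 26.3, 35.1 and 60.4. Each fold went with a single p-value within a list. This held over all 183 folds of the Pt-ttpy list, 184 of the cisplatin list and 179 of the untreated list. Between lists, like folds went with unlike q-values. At 2622650 to 2622793 the untreated region had a fold of 9.32 and a -log10 q of 19.7. The regions there had 8.82 and 31.2 after Pt-ttpy, and 9.52 and 33.98 after cisplatin. In the stretch a -log10 q of 5 was first passed at a fold of 3.78 for Pt-ttpy, 3.81 for cisplatin and 4.81 for untreated. How far this bears on counts, widths and shares compared with the untreated list was not tested. Whether the authors corrected for copy number or repeated sequence is not stated in the labels, and no such correction was made here.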

How the data were processed

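γH2AX chromatin immunoprecipitation sequencing was deposited as 1 peak list per condition. Per the labels' protocols, sonicated fragments measured 200 to 700 bp and were sequenced as single reads, 50 bases long. Per the submitters' processing notes, BWA 0.7.5, MACS2 2.1.0 and hg19 were used. The sources used here give neither calling settings, nor the control of each list, nor how replicates were treated. Per peak, the authors deposited a fold ratio over background, a -log10 p-value, a -log10 q-value, a score of 10 times the -log10 q and the summit position.

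Regions on chromosomes 1 to 22 and X were used, each as 1 region. Overlap meant at least 1 bp. Positions are 1-based hg19. Assembly gaps were entered from general knowledge of hg19, and 0 regions lay inside them. Intervals on shares are exact (Clopper-Pearson). The interval and the named places were chosen with earlier results of these data known. In each list the 5 densest windows, the 5 regions of highest fold, the 5 widest, and the 3 strongest in 1 drug list alone were taken by rule, and those that lead are given. Alternatives were a stricter q, equal list lengths, merging within 1 kb, joined untreated pieces, missing untreated numbers, other window limits and grids, and other overlap rules. Overlap and window counts were tested on simulated data. Scripts ran in Python 3.11.15 with scipy 1.17.1, pandas 2.3.3, numpy 2.4.6 and, for figures, matplotlib 3.10.9.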

Additional observations from a re-analysis of the deposited data

How the results depend on the processing

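No paired analysis was possible because each condition is deposited as 1 peak list, and leaving out a replicate was not possible for the same reason. Each value was recomputed by changing 1 choice at a time, 138 values in all. Of these, 70 stayed within 1.5 times (counts) or within the 95% interval (shares, medians and ratios) of the reported value, 66 moved and 2 turned direction.

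With a -log10 q of at least 5, 167 Pt-ttpy and 118 untreated regions were left. Median widths were 317, 306 and 247 bp and median folds 4.69, 4.67 and 5.71 for Pt-ttpy, cisplatin and untreated. The cisplatin share of its list was 1.85%, its share in dense windows 96.0%, and Pt-ttpy on cisplatin 85.6%. With equal lists, 167 Pt-ttpy and 196 cisplatin regions were left, or 1.72% and 2.02% of their lists, with median widths of 317 and 330 bp and median folds of 4.69 and 5.02, and 97.4% of the cisplatin regions lay in dense windows. The ratio of Pt-ttpy over untreated turned to 0.913 and that of cisplatin over untreated moved to 1.07. Overlap was 73.5% for cisplatin on Pt-ttpy, 62.9% for Pt-ttpy on untreated, 91.3% for untreated on Pt-ttpy, 54.1% for cisplatin on untreated and 89.1% for untreated on cisplatin.

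With regions within 1 kb merged, 69 Pt-ttpy, 89 cisplatin and 63 untreated regions remained by number, with median widths of 998, 623 and 485 bp and shares in dense windows of 78.3%, 70.8% and 90.5%. The Pt-ttpy and cisplatin shares of their lists were 0.903% and 0.663%, and the ratios over untreated 1.10 for Pt-ttpy and 1.41 for cisplatin. With the missing untreated numbers counted, the untreated list had 275 regions, and the ratios were 0.945 for Pt-ttpy, turned, and 1.18 for cisplatin. Without the dense windows, 12 Pt-ttpy, 21 cisplatin and 2 untreated regions gave ratios of 0.571 for Pt-ttpy over cisplatin, 6 for Pt-ttpy over untreated and 10.5 for cisplatin over untreated. Overlap there was 75% for Pt-ttpy on cisplatin, 42.9% for cisplatin on Pt-ttpy, 16.7% for Pt-ttpy on untreated, 9.52% for cisplatin on untreated, and 100% for untreated on either drug list.

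Calling a window dense from 3 regions moved the cisplatin share in dense windows to 96.0%, and from 10 regions it left 4 untreated dense windows with 95.6% of the untreated regions. With 50% of a region to be covered, overlap was 73.5% for Pt-ttpy on cisplatin, 60.6% for cisplatin on Pt-ttpy, 25.8% for Pt-ttpy on untreated and 21.5% for cisplatin on untreated. Within 1 kb these were 96.5%, 91.4%, 72.3% and 66.2%, with 99.5% for untreated on Pt-ttpy and 100% for untreated on cisplatin. Joining untreated pieces and shifting the windows by 50 kb moved no value past these limits. Of the 70 counts per leading window, 34 moved. Fewer regions or a wider or narrower overlap rule change these values by construction. The lists give no read depth, so a place off a list may be weakly enriched there.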

Other observations

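Just outside the stretch, on its telomere side, a further group of regions lay at 0.8 to 0.9 Mb, with 15 Pt-ttpy, 15 cisplatin and 10 untreated regions. All 10 untreated regions there overlapped a region of both drug lists, and the median fold was 6.49 in the Pt-ttpy, 6.58 in the cisplatin and 8.27 in the untreated list, above the medians of 3.91, 3.64 and 5.71 of the whole lists. On the centromere side the first group lay at 21.7 to 21.8 Mb, with 7 Pt-ttpy and 8 cisplatin regions against 1 untreated region, which both drug lists also called. Of these 7 Pt-ttpy regions, 6 overlapped a cisplatin one. Both groups were singled out after their values were seen.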
